A study of Mus musculus with 6 samples.

Results

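The genes described here are 32 mouse genes for protein folding, quality control and degradation in the endoplasmic reticulum (ER), taken by symbol from 24379 genes in a table of RNA sequencing counts. They were measured in RAW264.7, a mouse cell line with macrophage properties that arose in an animal given Abelson leukaemia virus. By their labels, 3 libraries came from cells given high-fructose corn syrup (HFCS), a syrup of the sugars fructose and glucose, and 3 from cells called WT, all at 18 h. The labels disagree on the dose of HFCS, with 140 mM in titles and treatment fields and 170 mM in source names, and no label says what medium the WT cells had. Both groups are the same line, and separate cultures are not stated for the replicates, so a p-value here weighs only the spread among libraries, possibly technical. The members were sorted by role into 4 genes for stress sensors and their transducer, 9 for chaperones and co-chaperones, 7 for disulfide-forming enzymes, 9 for ER-associated degradation (ERAD) and 3 other targets of ER stress signalling.

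Proteins that enter the ER are folded by chaperones of the heat shock and lectin families while oxidases and disulfide isomerases join their cysteines. Chains that fail to fold are trimmed at their sugars, pulled back into the cytosol and destroyed by the proteasome, which is ERAD. Unfolded protein in the ER activates the sensors IRE1 (gene Ern1), PERK (Eif2ak3) and ATF6, which raise chaperone and ERAD genes through the transcription factors XBP1, ATF4 and cleaved ATF6. In macrophages, the IRE1 and XBP1 branch is also known to be engaged by Toll-like receptors.

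Library totals ran from 13108485 to 15340255 counts, and 3 counts correspond to 0.190 to 0.223 CPM (counts relative to the TMM-scaled library size). The first principal component, with 70.0% of the variance, parted the groups. On the second, with 11.8%, WT replicate 1 stood apart from the other WT libraries (29.3 against -14.2 and -13.4). HFCS replicate 3 stood apart from the other HFCS libraries there (-18.9 against 8.89 and 8.23). Of 10 listed macrophage markers, 9 were in the table and Mrc1 had no row there. The 9 had a group mean of at least 5.92 CPM, the lowest being Fcgr1 in WT. Of 25 listed markers of fibroblasts, T cells, B cells, epithelium and endothelium, 16 were in the table. Of these 16, 11 stayed under 1 CPM in each group, and the highest was Vwf at 14.1 CPM in HFCS. Among the rest, Cldn4 stood at 0.0865 CPM in HFCS and 7.97 CPM in WT, and Pecam1 at 0.785 CPM in HFCS and 2.87 CPM in WT, and their part in the results was not tested. Akr1b3, an aldose reductase gene known to respond to hypertonic medium, averaged 208 ± 12.0 CPM in the HFCS-labelled and 7435 ± 381 CPM in the WT-labelled libraries (SD, n = 3 each). Libraries are therefore named by their labels, and each direction rests on those labels. Whether labels were exchanged, which would turn every direction given here, or the WT medium was hypertonic was not tested.

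In the HFCS-labelled libraries, 6 of 8 tested degradation genes rose and 1 fell. Of the 9 chaperone genes 2 rose and 3 fell, of the 7 disulfide enzyme genes 2 rose and 3 fell, and the sensor genes other than Ern1 did not pass the test. Of the 32 members, 31 passed the filter on low counts, and Derl3 did not. Of these 31, 12 rose, 7 fell and 12 did not pass at 0.05 after Benjamini-Hochberg adjustment of edgeR's quasi-likelihood p over all 14360 tested genes. Among all tested genes 44.9% were called, 22.4% higher and 22.5% lower, so the 38.7% of members that rose lies above that background and the 22.6% that fell beside it. The call of 3223 higher and 3224 lower genes became 3975 and 2624 with library-size scaling, which gave 13 higher and 5 lower members. None of the 31 tested members reached 2-fold, where 10.6% of all tested genes did so and passed the test. The size of the change was 1.36- to 1.89-fold for the 12 that rose and 1.13- to 1.74-fold for the 7 that fell. The groups' libraries did not overlap for 20 of the 31 members, against 54.5% of all tested genes. The members' median log2 fold change was 0.07 and that of all tested genes was 0.00. CPM values are shares of a library taken from pooled cells, so fewer cells with a message and less message per cell cannot be told apart.

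**Figure D1:**
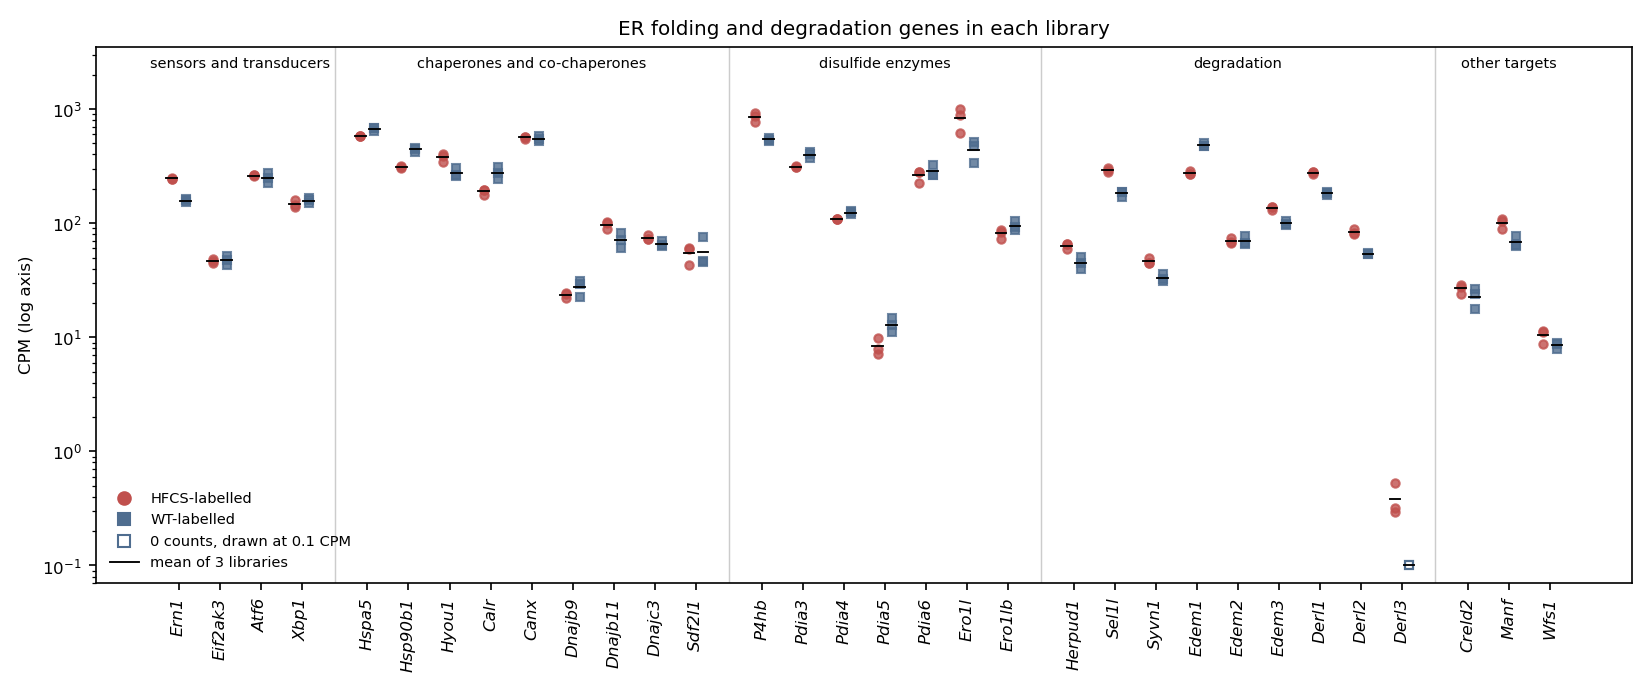
CPM on a log axis of each of the 32 genes in each library, with HFCS-labelled libraries as circles left of WT-labelled libraries as squares and bars at the mean of 3 libraries; open squares mark 0 counts, drawn at 0.1 CPM. Sel1l, Derl1 and Ern1 lie higher in every HFCS-labelled library, Edem1 and Hsp90b1 lie lower, and Derl3 was counted in the HFCS-labelled libraries only.

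**Figure D2:**
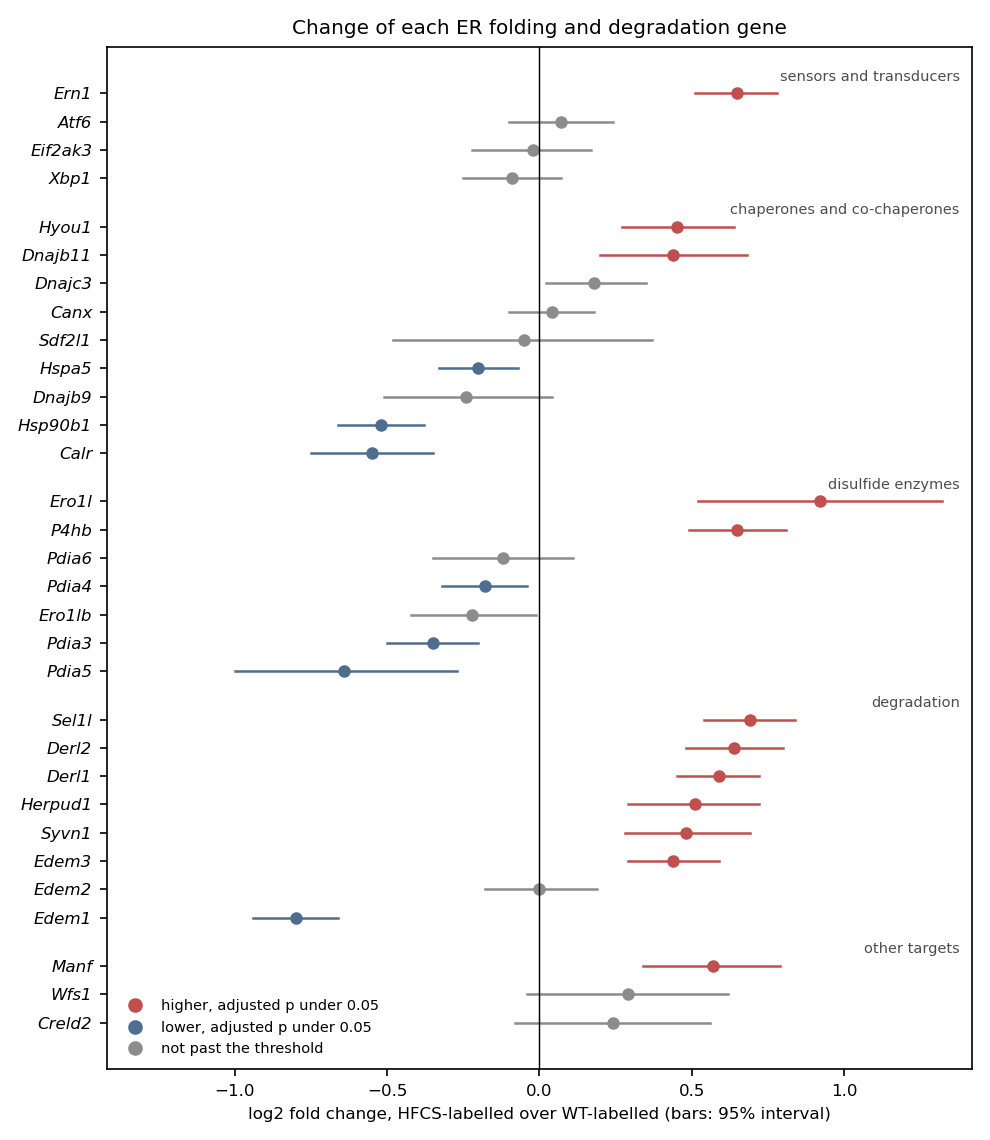
Log2 fold change of the 31 tested genes, HFCS-labelled over WT-labelled, with 95% intervals, by class and in order of size. In the degradation class 6 of 8 genes lie right of 0 with intervals clear of it, while chaperones and disulfide enzymes lie on both sides.

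Several members share a sequence by which ER stress acts on promoters, and it is shown here because genes that carry it moved in both directions. The ER stress response element (ERSE), which binds ATF6 together with NF-Y, reads CCAAT, then 9 of any base, then CCACG. The shorter ERSE-II reads ATTGG, then 1 of any base, then CCACG. Both strands of windows from 250 bases before to 50 bases after each RefSeq gene start (build GRCm38.p6, the same as mm10) were searched, and 28 of the 32 members had a window, the others being Atf6, Derl1, Hyou1 and Manf. The ERSE was found in 10 members and in 39 of 32851 windows in all (0.119%). The ERSE-II was found in 2 members and in 12 of all windows (0.0365%). Since the members were picked as known genes of this response, their share of 42.9% describes the list. The matches are printed with 9 bases on each side, in the direction of the motif, with the fixed bases in capitals.
Hspa5 ERSE at chr2:34772016-34772052, plus strand: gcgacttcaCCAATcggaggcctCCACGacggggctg
Hsp90b1 ERSE at chr10:86705629-86705665, minus strand: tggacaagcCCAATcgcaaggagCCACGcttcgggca
Hsp90b1 ERSE at chr10:86705524-86705560, plus strand: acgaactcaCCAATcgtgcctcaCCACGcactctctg
Calr ERSE at chr8:84847066-84847102, plus strand: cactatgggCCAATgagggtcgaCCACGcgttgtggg
Dnajb11 ERSE-II at chr16:22857843-22857871, plus strand: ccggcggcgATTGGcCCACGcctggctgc
Herpud1 ERSE-II at chr8:94386368-94386396, plus strand: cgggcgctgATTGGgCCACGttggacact
Syvn1 ERSE at chr19:6046523-6046559, plus strand: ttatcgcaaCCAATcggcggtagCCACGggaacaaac
Canx ERSE at chr11:50325791-50325827, minus strand: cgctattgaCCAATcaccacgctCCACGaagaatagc
Pdia6 ERSE at chr12:17266482-17266518, plus strand: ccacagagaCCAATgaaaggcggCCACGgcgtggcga
Ero1lb ERSE at chr13:12565673-12565709, minus strand: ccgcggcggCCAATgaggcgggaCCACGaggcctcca
Dnajc3 ERSE at chr14:118937818-118937854, plus strand: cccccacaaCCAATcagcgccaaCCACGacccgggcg
Creld2 ERSE at chr15:88819511-88819547, minus strand: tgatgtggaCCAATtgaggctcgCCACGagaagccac
Derl3 ERSE at chr10:75893233-75893269, minus strand: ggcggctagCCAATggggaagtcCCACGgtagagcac

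Of the 7 members that fell, all of which had a window, Hspa5, Hsp90b1 and Calr held an ERSE. Of the 9 that rose and had a window, Syvn1 held an ERSE and Dnajb11 and Herpud1 an ERSE-II. The match of Dnajb11 lies 7 to 17 bases after the gene start, whereas all other printed matches lie before it. Of the 11 that did not pass, Canx, Pdia6, Ero1lb, Dnajc3 and Creld2 held an ERSE, as did Derl3, which was not tested. The element therefore occurred among members in each direction. TGACGTGG, the core of the XBP1-binding element known as UPRE, was in the window of 0 members and in 0.676% of all windows. TGATGCAA, the core of an element called CARE that ATF4 dimers bind, was in the window of Herpud1 alone and in 0.895% of all windows. A match is a description of letters in these windows and not a site of binding. The 250 bases upstream of Hsp90b1, which fell and has an ERSE on each strand, and of Herpud1, which rose and has an ERSE-II after an ATF4-type core on the reverse strand, are printed in gene direction with the matched fixed bases in capitals.
Hsp90b1 upstream region at chr10:86705445-86705694, minus strand: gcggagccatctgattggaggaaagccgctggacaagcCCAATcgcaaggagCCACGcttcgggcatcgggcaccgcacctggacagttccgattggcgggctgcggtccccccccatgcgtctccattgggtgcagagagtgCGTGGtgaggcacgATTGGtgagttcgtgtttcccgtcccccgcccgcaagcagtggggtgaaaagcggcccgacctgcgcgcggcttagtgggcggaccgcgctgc
Herpud1 upstream region at chr8:94386179-94386428, plus strand: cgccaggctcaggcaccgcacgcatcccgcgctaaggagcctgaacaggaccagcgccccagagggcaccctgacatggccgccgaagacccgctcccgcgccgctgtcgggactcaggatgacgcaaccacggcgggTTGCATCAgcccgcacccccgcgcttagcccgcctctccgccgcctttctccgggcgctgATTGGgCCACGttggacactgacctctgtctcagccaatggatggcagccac

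**Figure D3:**
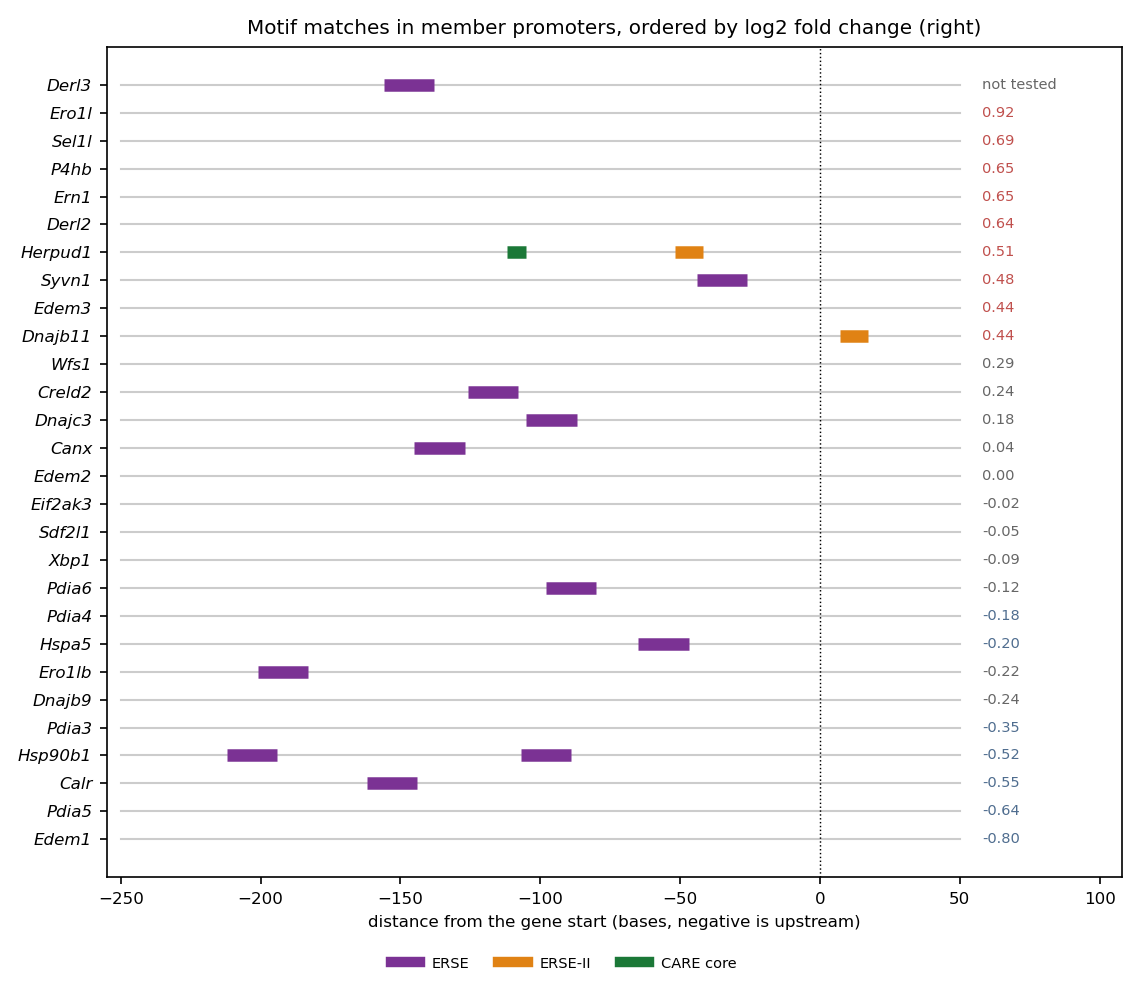
Positions of motif matches in the promoter windows of 28 genes, as distance in bases from the gene start, ordered by log2 fold change (printed at the right, HFCS-labelled over WT-labelled). ERSE matches lie beside genes at 0.48 (Syvn1) and at -0.55 (Calr), and the windows of Ero1l, Sel1l and Edem1 hold none of these motifs.

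Of 37 other genes with an ERSE or ERSE-II in a window, 14 were tested. Of these 14, 6 rose, 3 fell and 5 did not pass, where 22.4% of all tested genes rose and 22.5% fell. Their median log2 fold change was 0.17, and they ran from Tdrd9 (-2.35), which fell, to Lrif1 (1.13), which rose. Also among the 14 were Krtcap2 (0.66), a subunit of the oligosaccharyltransferase, and Alg12 (0.54), a mannosyltransferase of N-glycan assembly, which both rose. Hnrnpa3 (-0.37), a splicing factor gene, fell. All of these names except Krtcap2 were chosen after their values were seen.

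Among the sensors, Ern1 rose and Eif2ak3, Atf6 and Xbp1 did not pass. Ern1 (ENSMUSG00000020715, mm10 chromosome 11, 106394650 to 106487852, minus strand), the kinase and endonuclease that splices Xbp1 mRNA, had 249, 245 and 246 CPM in the HFCS-labelled libraries, against 152, 159 and 162 CPM in the WT-labelled libraries. The groups did not overlap, and each HFCS-labelled library lay above each WT-labelled one. The log2 fold change was 0.65 ± 0.06 (SE), and the edgeR adjusted p was 1.7e-05. Xbp1, its substrate, had 139.5, 145 and 159.8 CPM in HFCS-labelled and 149, 159 and 165 CPM in WT-labelled libraries, a log2 fold change of -0.09 with a 95% interval of -0.25 to 0.07. Counts per gene do not tell spliced from unspliced Xbp1 mRNA. Eif2ak3, the kinase PERK that slows translation by phosphorylating eIF2, averaged 46.8 ± 1.99 CPM in HFCS-labelled and 47.6 ± 4.14 CPM in WT-labelled libraries (SD, n = 3 each), with an interval of -0.22 to 0.17. Atf6, the membrane-bound factor released by cleavage in the Golgi, averaged 262 ± 1.34 CPM in HFCS-labelled and 249 ± 24.7 CPM in WT-labelled libraries, with an interval of -0.10 to 0.24. These intervals exclude a change of the size of Ern1's for the other 3 genes, but a p that misses the threshold does not show equal levels.

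Of the 9 chaperone genes, 2 were higher, 3 lower and 4 not past the test, or 3 higher and 2 lower with library-size scaling or without WT replicate 2. The share higher, 22.2%, lies beside the 22.4% of all tested genes, and the share lower rests on 3 genes. Hsp90b1 (chromosome 10, 86690209 to 86705509, minus strand), which codes for the ER member of the HSP90 family, GRP94, had 304, 308 and 315 CPM in HFCS-labelled libraries, against 423, 450.4 and 457 CPM in WT-labelled libraries. All HFCS-labelled libraries lay below all WT-labelled ones. The log2 fold change was -0.52 ± 0.06 (SE), and the edgeR adjusted p was 8.7e-05. Its span overlaps Gm15344 on the same strand and 1810014B01Rik on the other, with 425 and 1340 counts over all libraries beside 32490 for Hsp90b1.

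Calr (chromosome 8, 84841850 to 84846934, minus strand), the soluble lectin chaperone calreticulin, had 196, 197 and 175 CPM in HFCS-labelled libraries, against 310.3, 276 and 244 CPM in WT-labelled libraries, a log2 fold change of -0.55 ± 0.09. Its membrane-bound relative Canx, calnexin, averaged 566 ± 12.2 CPM in HFCS-labelled and 549.9 ± 25.3 CPM in WT-labelled libraries and did not pass, with an interval of -0.10 to 0.18. Per kilobase of exon, the level of Calr relative to Canx was 0.547 ± 0.0423 in HFCS-labelled and 0.824 ± 0.125 in WT-labelled libraries, without overlap between the groups. Such a ratio is taken within a library and does not depend on the scaling between libraries, and the pairs given here were chosen after their values were seen.

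Hspa5 (chromosome 2, 34771970 to 34777547, plus strand), the HSP70 chaperone BiP that also holds the sensors inactive, had 579, 584 and 577 CPM in HFCS-labelled libraries, against 678, 678 and 641 CPM in WT-labelled libraries. The groups did not overlap, and the log2 fold change was -0.20 ± 0.06, at an edgeR adjusted p of 0.0190. The call was lost with library-size scaling (edgeR adjusted p = 0.122) and with any 1 of HFCS replicates 1, 2 or 3 or WT replicate 2 left out (0.0556 to 0.0985), as well as without a filter (0.0667).

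Of the genes for partners of BiP, Hyou1 and Dnajb11 rose. Hyou1 (chromosome 9, 44379490 to 44392369, plus strand), a large HSP70 relative that exchanges the nucleotide of BiP, had 401, 386 and 346 CPM in HFCS-labelled and 305, 257 and 266 CPM in WT-labelled libraries and rose by 0.45 ± 0.08. Dnajb11, the J-domain co-chaperone ERdj3, had 103, 100.1 and 89.3 CPM in HFCS-labelled and 82.7, 60.7 and 71.3 CPM in WT-labelled libraries and rose by 0.44 ± 0.11. These 2 genes were higher in every HFCS-labelled library than in any WT-labelled one. Per kilobase, Hspa5 stood at 2.63 ± 0.195 times Hyou1 in HFCS-labelled and 4.15 ± 0.355 times in WT-labelled libraries. Dnajb9 (ERdj4), Dnajc3 (p58IPK, an inhibitor of PERK) and Sdf2l1, a companion of ERdj3, did not pass, with log2 fold changes of -0.24, 0.18 and -0.05. Sdf2l1 had the widest interval of the tested members, -0.48 to 0.37, with 59.8, 60.3 and 42.7 CPM in HFCS-labelled and 76.1, 45.8 and 46.8 CPM in WT-labelled libraries. Without WT replicate 1, Dnajb9 passed as lower (-0.35, edgeR adjusted p = 0.00802), and Dnajc3 passed as higher without WT replicate 2 (0.24, edgeR adjusted p = 0.0412) and with library-size scaling (0.26, edgeR adjusted p = 0.0153).

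Among disulfide enzymes, the oxidase Ero1l and the isomerase P4hb rose, and 3 other isomerases fell, or 2 where the call of Pdia4 was lost, as with library-size scaling. Ero1l (also Ero1a, chromosome 14, 45283087 to 45318771, minus strand), which passes electrons from disulfide isomerase to oxygen, had 618, 998 and 892 CPM in HFCS-labelled libraries, against 334, 479 and 511 CPM in WT-labelled libraries. In each group replicate 1 was the lowest, and the groups did not overlap. The log2 fold change of 0.92 ± 0.18 was the highest of the tested members, and the edgeR adjusted p was 0.00196. Its relative Ero1lb (Ero1b) averaged 81.4 ± 7.32 CPM in HFCS-labelled and 94.6 ± 9.49 CPM in WT-labelled libraries and did not pass (edgeR adjusted p = 0.0817), though it passed as lower without WT replicate 1 (0.0116), with upper-quartile scaling (0.0486) and with replicate numbers fitted as blocks (0.0490). Per kilobase, Ero1l stood at 9.20, 17.2 and 12.96 times Ero1lb in HFCS-labelled libraries and at 4.87, 5.75 and 6.94 times in WT-labelled libraries.

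P4hb (chromosome 11, 120560298 to 120573253, minus strand), the founding protein disulfide isomerase, had 778, 919 and 862 CPM in HFCS-labelled libraries, against 530.1, 538 and 559 CPM in WT-labelled libraries, a log2 fold change of 0.65 ± 0.07 (edgeR adjusted p = 5.4e-05). Per kilobase it ranked first of the 32 members in each group. Pdia3, the isomerase ERp57 that works with the lectin chaperones, had 309, 312 and 316 CPM in HFCS-labelled and 369.9, 416 and 408 CPM in WT-labelled libraries and fell by 0.35 on the log2 scale. The groups of each of these genes did not overlap, and they lay on opposite sides. P4hb stood at 2.99 ± 0.234 times Pdia3 per kilobase in HFCS-labelled and 1.497 ± 0.0782 times in WT-labelled libraries. Pdia5 fell by 0.64 at a low level of 8.32 ± 1.46 CPM in HFCS-labelled and 12.9 ± 1.74 CPM in WT-labelled libraries. Pdia4, with 109 ± 0.776 CPM in HFCS-labelled and 124 ± 4.45 CPM in WT-labelled libraries, fell by 0.18 (edgeR adjusted p = 0.0353), but 8 of 14 alternatives took it above the threshold, among them DESeq2, library-size scaling (edgeR adjusted p = 0.206) and each library left out except WT replicate 1. Pdia6 did not pass, with an interval of -0.35 to 0.11.

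Of the 8 tested degradation genes, 6 rose, Edem1 fell and Edem2 did not pass. Those that rose include 5 genes linked to the HRD1 ubiquitin ligase complex in the ER membrane. Sel1l (chromosome 12, 91806043 to 91849157, minus strand), the adaptor that hands substrates to the ligase, had 295, 283 and 305 CPM in HFCS-labelled libraries, against 170.4, 188 and 188 CPM in WT-labelled libraries, a log2 fold change of 0.69 ± 0.07 (edgeR adjusted p = 2.3e-05). Syvn1, the ligase HRD1 itself, had 44.8, 45.0 and 49.2 CPM in HFCS-labelled and 31.1, 36.0 and 32.3 CPM in WT-labelled libraries and rose by 0.48 ± 0.09. Each HFCS-labelled library exceeded each WT-labelled one for these 2 genes.

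Herpud1, a membrane protein that helps assemble the complex, rose by 0.51 ± 0.10 and had 65.1, 59.7 and 66.3 CPM in HFCS-labelled and 39.95, 44.6 and 50.1 CPM in WT-labelled libraries. Derl1 (chromosome 15, 57869502 to 57892448, minus strand), a derlin of the channel by which proteins leave the ER, had 278, 279 and 269.9 CPM in HFCS-labelled and 188, 177 and 186 CPM in WT-labelled libraries and rose by 0.59 ± 0.06. Derl2 had 82.5, 81.0 and 89.4 CPM in HFCS-labelled and 54.7, 53.7 and 53.6 CPM in WT-labelled libraries and rose by 0.64 ± 0.07. In these 3 genes the groups again did not overlap. Derl3, the third derlin, was counted 4, 8 and 5 times in the HFCS-labelled libraries and 0 times in each WT-labelled library. With the WT group set to a floor of 3 counts, that is 5.37-fold higher, which leaves out the counting error of the HFCS-labelled libraries. It was tested only without a filter on low counts, where the edgeR adjusted p was 0.00893.

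The EDEM proteins, which trim mannose from misfolded glycoproteins and so mark them for ERAD, split 3 ways. Edem1 (chromosome 6, 108828641 to 108859356, plus strand) had 268, 289 and 272 CPM in HFCS-labelled libraries, against 477, 501 and 470.3 CPM in WT-labelled libraries. Its log2 fold change of -0.80 ± 0.06 was the lowest of the tested members, and the edgeR adjusted p was 6.2e-06. Edem3 (chromosome 1, 151755371 to 151822051, plus strand) had 129.9, 139 and 139 CPM in HFCS-labelled and 95.7, 105 and 99.3 CPM in WT-labelled libraries and rose by 0.44 ± 0.07. Edem2 averaged 70.0 ± 4.28 CPM in HFCS-labelled and 69.9 ± 5.77 CPM in WT-labelled libraries, a log2 fold change of 0.00 with an interval of -0.18 to 0.19. Per kilobase, Edem1 stood at 2.04, 2.06 and 1.93 times Edem3 in HFCS-labelled libraries and at 4.93, 4.71 and 4.68 times in WT-labelled libraries. The members of the class therefore changed level relative to each other within a library. Summed, the 9 degradation genes took 1247 ± 14.2 CPM in HFCS-labelled and 1150.4 ± 20.1 CPM in WT-labelled libraries. Without Edem1 they took 970.4 ± 14.2 CPM in HFCS-labelled and 667.7 ± 9.998 CPM in WT-labelled libraries. Edem1 was left out as the gene of its class with the highest mean CPM in WT. It is also the only one of the class that fell, so leaving it out widens the difference.

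Of the other targets, Manf rose and Creld2 and Wfs1 did not pass. Manf, a secreted protein that binds BiP, had 109, 105 and 88.2 CPM in HFCS-labelled and 76.5, 64.1 and 63.4 CPM in WT-labelled libraries, a log2 fold change of 0.57 ± 0.10. Its listed span overlaps Rbm15b on the same strand and Dcaf1 on the other, with 4333 and 6311 counts over all libraries beside its own 7338. Rbm15b had 2835 counts in HFCS-labelled and 1498 in WT-labelled libraries, and Dcaf1 had 3532 and 2779. The count of Manf and its call as higher are therefore uncertain, and the part of these genes in it was not tested. In all, 10 of the 32 members overlap another listed gene, among them Derl2 with Mis12 and Syvn1 with Mrpl49 on the opposite strand, and the sources used here do not give the strand setting of the counting. Creld2, a disulfide isomerase-like protein, averaged 26.8 ± 2.39 CPM in HFCS-labelled and 22.7 ± 4.45 CPM in WT-labelled libraries, and without WT replicate 1 it passed as higher (0.37, edgeR adjusted p = 0.0302). Wfs1, the membrane protein wolframin, averaged 10.4 ± 1.46 CPM in HFCS-labelled and 8.52 ± 0.517 CPM in WT-labelled libraries.

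Summed by class, the sensors took 703 ± 8.75 CPM in HFCS-labelled and 612 ± 33.8 CPM in WT-labelled libraries and the chaperones 2272 ± 45.4 CPM in HFCS-labelled and 2433 ± 60.6 CPM in WT-labelled libraries. The disulfide enzymes took 2462 ± 258 CPM in HFCS-labelled and 1898 ± 105 CPM in WT-labelled libraries, and Ero1l and P4hb make up most of that sum. The gene with the highest mean CPM in WT was also left out of these classes. In HFCS-labelled and WT-labelled libraries, chaperones without Hspa5 took 1692 ± 42.5 and 1767 ± 40.8 CPM. Disulfide enzymes without P4hb took 1609 ± 187 and 1355 ± 92.9 CPM, and sensors without Atf6 442 ± 7.86 and 363 ± 9.21 CPM. The class medians of the log2 fold change were 0.49 for degradation, 0.02 for sensors, -0.05 for chaperones and -0.18 for disulfide enzymes. No test of the difference between classes was made, since the genes of a class are not replicates.

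Inside a group, the highest library exceeded the lowest by a median of 1.10 times in the HFCS-labelled and 1.16 times in the WT-labelled group, and by over 1.5 times for 1 of the 31 tested members in the HFCS-labelled group (Ero1l) and 2 in the WT-labelled group (Sdf2l1 and Ero1l). WT replicate 1 was the highest of its group for 14 members, such as Calr, Sdf2l1 and Pdia5, and the lowest for 15, such as Ero1l, Dnajb9 and Herpud1. HFCS replicates 1, 2 and 3 were the lowest of their group for 12, 8 and 11 members and the highest for 7, 12 and 12. Without WT replicate 1, 13 members were called higher and 9 lower. In that setting 3860 of all 14663 tested genes were called higher and 3690 lower.

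**Figure D4:**
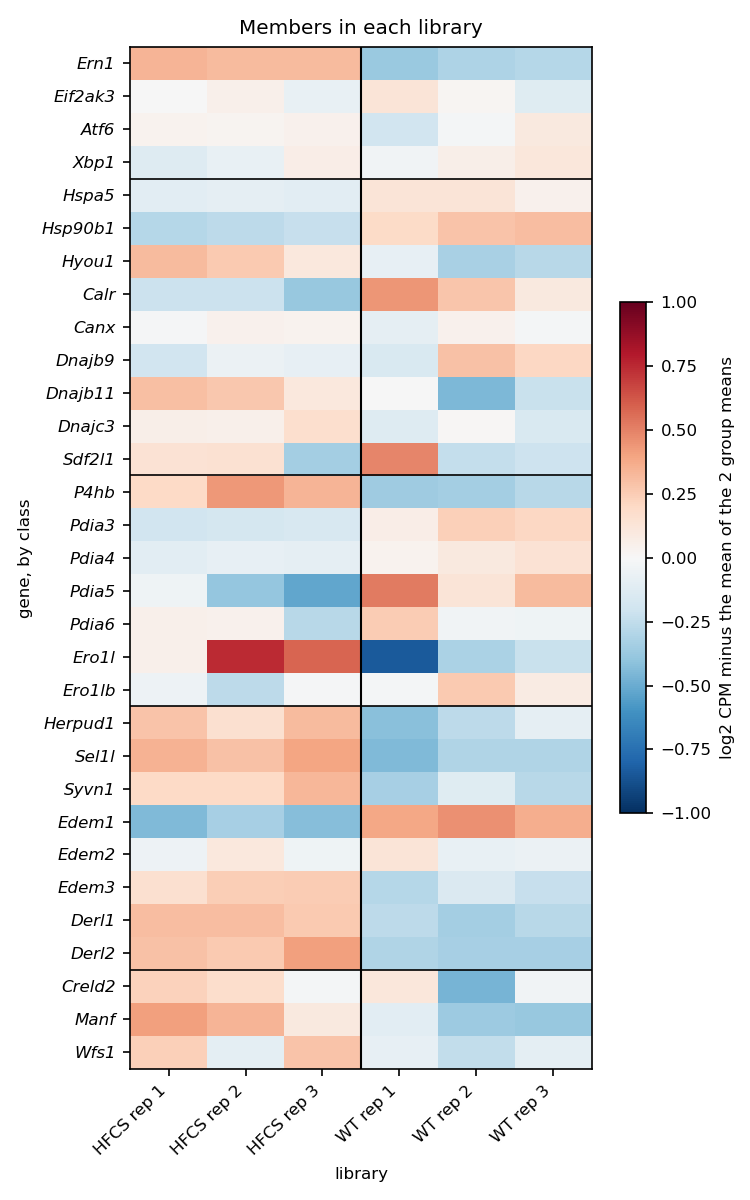
Log2 CPM of the 31 tested genes in each library, minus the mean of the group means, with HFCS-labelled libraries at the left and black lines between the classes. The degradation genes other than Edem1 and Edem2 are raised in each HFCS-labelled library, and WT replicate 1 differs from the other WT libraries at Sdf2l1 and Ero1l.

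Genes of the same pathway outside the 32 were sorted into 11 lists, whose counts stand against the 22.4% higher and 22.5% lower of all tested genes. Among 34 tested further ERAD genes, 16 rose and 3 fell, with a median log2 fold change of 0.21. Rhbdd1, an intramembrane protease of the ER, averaged 239 ± 4.81 CPM in HFCS-labelled and 143 ± 6.91 CPM in WT-labelled libraries. Selenos, a selenoprotein that recruits the p97 ATPase, averaged 38.3 ± 1.64 CPM in HFCS-labelled and 17.8 ± 1.76 CPM in WT-labelled libraries. Faf2, which also binds p97, rose by 0.71 on the log2 scale. The 3 that fell were Fbxo2 (-2.19), Bag6 (-0.30) and the p97 gene Vcp (-0.18), chosen after their values were seen.

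Of 11 genes for the calnexin cycle and glycan trimming, 7 rose, among them Prkcsh (0.67), the beta subunit of glucosidase II, and the cargo receptor genes Lman1 (0.46) and Mcfd2 (0.47). The folding sensor gene Uggt1 (-0.22), named after its value was seen, fell. Of 42 other folding genes, 12 rose, with Tmx1 (0.62), a membrane-bound oxidoreductase, among them, and 6 fell, with Dnajb14 (-0.65) and Selenof (-0.42). That is 42.9% called, beside the 44.9% of all tested genes. Of 34 genes for protein entry and N-glycosylation, 13 rose, led by Ostc (0.72), the signal peptidase gene Spcs2 (0.64) and Krtcap2 (0.66), and 2 fell.

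In the list for the ATF4 and CHOP branch, 10 of 17 genes rose and Nupr1 (-0.40) fell, while the PERK gene Eif2ak3 did not pass. Trib3, a pseudokinase induced by ATF4 and CHOP, averaged 208 ± 6.91 CPM in HFCS-labelled and 41.7 ± 8.07 CPM in WT-labelled libraries. Ppp1r15a, the GADD34 phosphatase subunit that reverses eIF2 phosphorylation, rose by 1.66 and Chac1, a glutathione-degrading enzyme, by 2.14 on the log2 scale. ATF4 is also reached from other eIF2 kinases, and the 17 genes include 3 of these kinases. Eif2ak1, Eif2ak2 and Eif2ak4 did not pass (edgeR adjusted p = 0.0757, 0.0592 and 0.245), and levels of mRNA do not give the activity of a kinase. Nupr1 and these kinases were named after their values were seen, as were Creb3l1, Creb3l3, Itpr1 and Itpr3 in the lists that follow.

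Of 5 tested partners of IRE1, the adaptor gene Traf2 (0.80), the kinase gene Map3k5 (0.32) and Tmbim6 (0.18) rose, and Tmbim6 passed with no library other than WT replicate 1 left out (edgeR adjusted p = 0.0710 to 0.0975 for the other 5). Of 7 transcripts known from mouse cells to be cut by IRE1, 2 were tested, of which Pmp22 rose by 1.05 and Hgsnat did not pass. Among 8 ATF6 relatives and their proteases, Creb3l2 (0.89) and Creb3l4 (0.87) rose and Atf6b (-0.24), Creb3l1 (-0.61) and Creb3l3 (-1.33) fell. Creb3l4 and Atf6b did not pass under 4 and 5 of the alternatives, such as without HFCS replicate 1 (edgeR adjusted p = 0.0576 and 0.0892). Of 7 tested ER-phagy receptors, Retreg2 (-0.64) fell, and Tex264 (0.48) and Retreg3 (0.25) were among the 3 that rose. Of 15 coat genes for export from the ER, 2 rose and 4 fell, so 6 were called, a smaller share than the 44.9% of all tested genes, with Sec16a at 0.59 and Sec16b and Sec24a at -1.40 and -0.58. Of 11 genes for ER calcium, 3 rose, including the calcium channel gene Orai1 (1.11) and its brake Saraf (0.60), and 3 fell, the inositol trisphosphate receptor genes Itpr1, Itpr2 and Itpr3 at -0.33, -0.49 and -0.33.

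**Figure D5:**
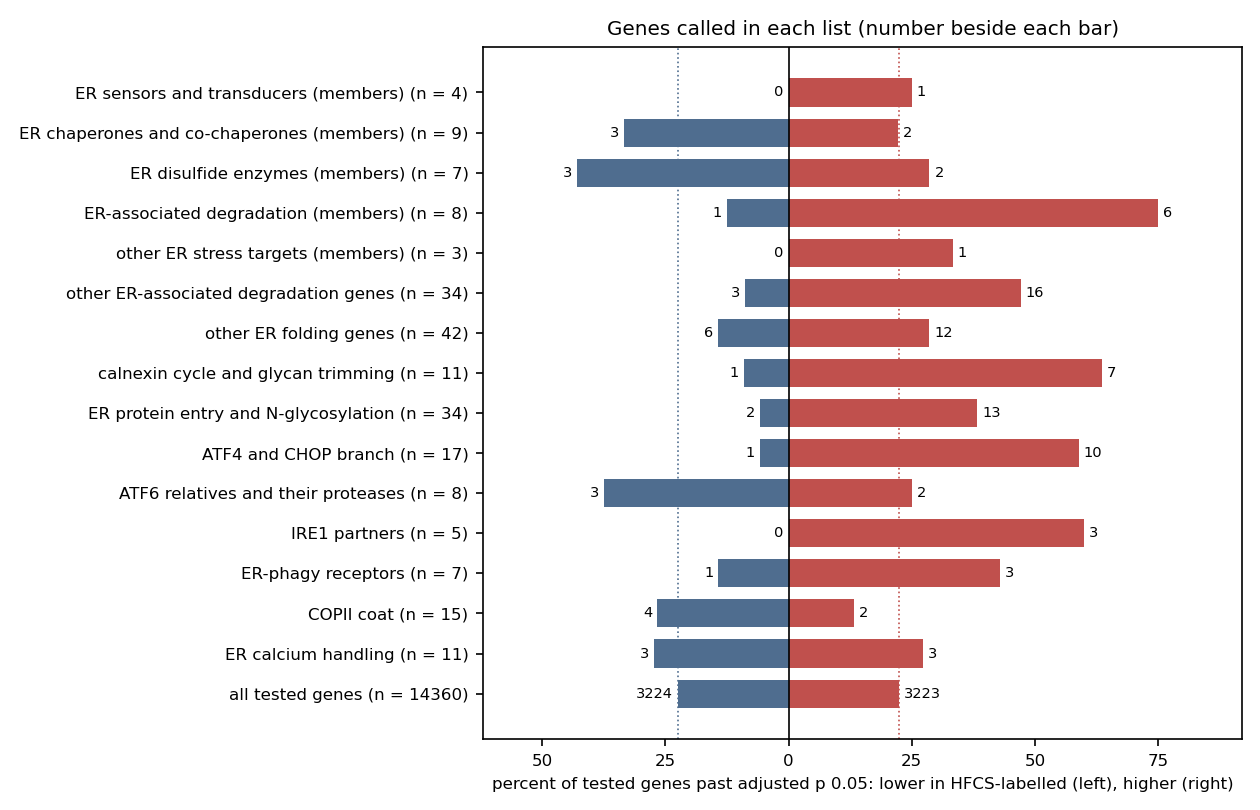
Percent of tested genes in each list called lower (left) and higher (right) in the HFCS-labelled libraries, with the number of genes beside each bar and dotted lines at the 22.5% and 22.4% of all tested genes. The list of transcripts known to be cut by IRE1 is not drawn. Among degradation members 6 of 8 and among further ERAD genes 16 of 34 are called higher, and the chaperone and disulfide classes have bars on both sides.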

How the data were processed

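RNA of RAW264.7 cells was sequenced in 6 libraries, 3 labelled HFCS and 3 WT, grouped by their titles. The authors deposited raw counts of reads for each gene. The submitters' processing notes name CASAVA, HISAT2 2.0.5 and featureCounts 1.5.0-p3 and build mm10, without their settings. Symbols came from a list of mouse gene names and were found for 24344 of 24379 identifiers. GENCODE M21 held 24369 of the identifiers, and 97.1% of genes had the same coordinates there. Genes were kept by filterByExpr with a minimum count of 10, leaving 14360, scaled by TMM and tested by edgeR 4.0.16 in R 4.3.3 (glmQLFit, glmQLFTest; group as the only term). An adjusted p under 0.05 was called, SEs were the log2 fold change over the root of F, and 95% intervals used the fit's degrees of freedom. The fit was tested on simulated data. Levels per kilobase used merged exon lengths. No 2 libraries agreed within sampling noise (chi-square per degree of freedom of at least 2.68 within groups). Members and lists were chosen with earlier results of these data known. Named were all members and, from each other list, at most 3 tested genes, those of lowest adjusted p. Alternatives were DESeq2 1.42.0, limma-voom (limma 3.58.1), scaling by library size, median of ratios or upper quartile, no filter, at least 10 counts in every library of either group, replicate blocks, a 2-fold limit, and leaving out single libraries. Protein sequences were not used here. Floors cover counting error only.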

Additional observations from a re-analysis of the deposited data

How the results depend on the processing

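Of the 19 members called, 17 kept their call under each of 14 alternatives, and Hspa5 and Pdia4 did not. Of the 12 not called, Dnajb9, Dnajc3, Ero1lb and Creld2 passed under at least 1 alternative; the cause was not tested. Called members were 12 to 13 higher and 5 to 9 lower when 1 library was left out, with 5115 to 7550 genes called in all, and the class counts were 4 to 6 for chaperones, 4 to 6 for disulfide enzymes, 7 for degradation and 1 for sensors. A 2-fold limit left 0 members higher, 0 lower and 0 in each of the 4 classes, with 1528 genes in all, by the limit's own construction. DESeq2 called 12 members higher and 6 lower, of 5913 genes called. With the replicate number as a block, 12 members were higher and 8 lower, of 7152 genes called. The correlation of deviations within same-numbered pairs was 0.167, -0.0640 and 0.191. Replicates 1 and 3 of either group correlated best with their own number, and replicate 2 of either group did not. Whether the numbers stand for real pairs cannot be decided from this, since deviations from a mean of 3 libraries depend on each other. Derl3, with few counts, did not pass the filter with its minimum count of 10 and could not be tested after it.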
